A study of Mus musculus with 12 samples.

Results

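The nuclear-encoded subunits of the respiratory chain were examined in bulk RNA-sequencing data from mouse osteoclasts, the multinucleated cells that resorb bone. The set was defined with earlier results of these data known, by a rule on names that uses no measured value. Members were the protein-coding genes named Nduf (a, b, c, s, v or ab followed by a digit), Sdha to Sdhd, Uqcr, Cyc1, Cox4 to Cox8 or Atp5, which gave 86 of the 47643 genes in the count table. By these names 38 belong to complex I, 4 to complex II, 9 to complex III, 18 to complex IV and 17 to complex V. A further 4 genes with matching names are annotated as pseudogenes and were not members. The study asked what changes in osteoclasts that have met eosinophils. Monocytes derived from the bone marrow (BMMs) of WT mice of the BALB/c strain were grown with M-CSF and RANKL, the cytokines that drive osteoclast formation, in all groups. They were left unstimulated (OCsCtr), co-cultured with sorted eosinophils (OCsEo), or given eosinophil supernatant (OCsEoS), with 4 libraries in each of the 3 groups. The co-culture held 2 eosinophils to 1 BMM, and the supernatant was diluted 1:2. The eosinophils were pooled from blood and bone marrow of IL-5tg/4get mice, animals with an IL-5 transgene and an IL-4 reporter, so they are not eosinophils of an unmanipulated mouse. The stimuli were present for the first 48 h only, and RNA was taken on day 3, after washing and a medium change. The age of the mice is not given in the labels. The study's methods call the libraries of a group biological replicates and do not say whether these were separate animals or separate cultures, so p-values measure the spread between these libraries.

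The respiratory chain sits in the inner mitochondrial membrane. Complex I takes electrons from NADH, and complex II takes them from succinate and is at the same time an enzyme of the tricarboxylic acid (TCA) cycle. Complex III passes the electrons from coenzyme Q to cytochrome c, complex IV passes them on to oxygen, and complex V uses the proton gradient that results to make ATP. Complexes I, III, IV and V join subunits encoded in the nucleus with subunits encoded in mitochondrial DNA, whereas complex II is encoded in the nucleus alone. Osteoclasts are known for their many mitochondria, and oxidative metabolism is known to increase as precursors become osteoclasts.

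Total counts per library ranged from 27837530 to 40327869, and 13681 genes passed the filter on low counts. Levels are given in CPM, counts scaled to the size of each library after TMM normalization, log2 fold changes are those fitted by edgeR, and adjusted p is the Benjamini-Hochberg value of edgeR's quasi-likelihood test over all genes tested. A gene passed the test at an adjusted p under 0.05, and was called a differentially expressed gene (DEG) if its log2 fold change was also beyond 0.5 in either direction. The cultures carried the markers of their label, and all 10 osteoclast markers examined (Ctsk, Mmp9, Acp5 and others) were lower in both stimulated groups. Their summed level ranged from 28358 to 34496 CPM in OCsCtr, from 18093 to 23205 CPM in OCsEo and from 14942 to 22171 CPM in OCsEoS, without overlap with the controls. The 7 macrophage markers summed to 1029 to 1214, 1091 to 1339 and 1020 to 1156 CPM in the same order of groups. Singly they moved apart. Cd68, the largest, fell in OCsEoS (log2 fold change -0.33, adjusted p = 0.000616). Adgre1 was higher in both (0.46 and 0.56, adjusted p = 0.00211 and 0.000297). Cx3cr1 (0.45, adjusted p = 0.0177) and Mrc1 (0.80, adjusted p = 0.0188) were higher in OCsEoS. Ccr2, Ly6c2 and Mertk passed in neither. In that order of groups, the 10 neutrophil markers summed to 314 to 457, 457 to 611 and 358 to 427 CPM. The 10 eosinophil markers summed to 57.1 to 73.7, 60.1 to 82.2 and 49.3 to 55.5 CPM. The eosinophil genes Epx, Prg3, Ear1 and Ear6 had 0 counts in every OCsEoS library, and at most 0.742 CPM in any OCsCtr library. In OCsEo, Alox15 (log2 fold change 5.17, adjusted p = 8.42e-07) and Siglecf (2.76, adjusted p = 0.000562) were higher than in OCsCtr. Alox15 reached 6.24 to 16.7 CPM there. Ccr3, the largest part of the eosinophil sum, was lower in OCsEo (-0.29, adjusted p = 0.0164). Prg2 (-0.01) and Ear2 (-0.20) did not pass in OCsEo. In OCsEoS, Prg2 (-2.74, adjusted p = 0.00136) and Ccr3 (-0.23, adjusted p = 0.0442) were lower, and Alox15, Siglecf and Ear2 did not pass. Of the neutrophil markers, Elane (0.99, adjusted p = 0.00038) and Camp (0.51, adjusted p = 0.00876) were higher in OCsEo. So were Ngp (0.42, adjusted p = 0.0164) and S100a9 (0.34, adjusted p = 0.0355). The other neutrophil markers did not pass in OCsEo, and no neutrophil marker passed in OCsEoS. Markers of T cells, B cells, mast cells and basophils, and erythroid cells summed to at most 21.4 CPM in any library. In bulk samples fewer osteoclasts in a culture and less RNA per osteoclast cannot be told apart. The part of the marker shift in the results below was not tested. OCsCtr replicate 1 differed from the other controls in that 1.43% of its counts fell on mitochondrial genes, against 0.487% in the lowest control, and its members summed to 35548 CPM, against 38577 to 40883 CPM in the other controls.

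The mRNAs of 13 members were lower in OCsEo and those of 18 in OCsEoS. As tested, most of these encode catalytic, electron-carrying or core subunits. With the gene length trend taken out, such subunits were no longer most of the lower members (14 of 29 and 15 of 44). In that fit 14 and 15 of the 18 such subunits were lower, against 15 and 29 of the other 63. Their medians were -0.22 and -0.26, against -0.11 and -0.15 for the others. Of the 86 members 81 passed the filter, namely 37, 4, 9, 14 and 17 of complexes I to V. In OCsEo compared with OCsCtr, 13 of the 81 (16.0%) were lower, against 8.35% of all genes tested, and 1 was higher, against 9.06%. In OCsEoS compared with OCsCtr, 18 (22.2%) were lower, against 11.2% of all genes, and 1 was higher, against 11.8%. The changes were small. The member called DEG in OCsEo was Ndufa12 (background 5.88%), and the 3 in OCsEoS were Sdha, Atp5s and Ndufa12 (background 7.73%). All 4 stimulated libraries lay below all 4 controls for 8 members in OCsEo (10.9% of all genes did so) and for 13 in OCsEoS (13.1% of all genes), and for 0 members did they all lie above, against 10.5% and 12.6% of all genes. The median log2 fold change of the members was -0.09 in both comparisons, against -0.01 for all genes tested, and 63 and 64 of the 81 values lay below 0. Both comparisons share the OCsCtr libraries, so the likeness of the values between them is not independent evidence. Grouped by role, 9 and 11 of the 18 catalytic, electron-carrying and core subunits of complexes I, II, III and V were lower in OCsEo and OCsEoS, with medians of -0.19 and -0.20, against 4 and 7 of the other 63, with medians of -0.07 and -0.06. The grouping was made with the results known, and the difference was not tested. Without OCsCtr replicate 1 the counts of lower members were 17 and 25. The count in OCsEo fell to 5 without OCsEo replicate 1 and to 6 without OCsCtr replicate 2 or without OCsCtr replicate 3, and the count in OCsEoS fell to 9 without OCsCtr replicate 2. The shares of all genes lower in these fits are not given here. The counts therefore do not show whether the members moved apart from the background.

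The complexes differed in how many members passed and in which ones. The numbers lower in OCsEo and OCsEoS were 4 and 5 of 37 in complex I, 2 and 3 of 4 in complex II, 4 and 3 of 9 in complex III, 0 and 2 of 14 in complex IV, and 3 and 5 of 17 in complex V. Read against the 8.35% and 11.2% of all genes that were lower, the shares of complex I (10.8% and 13.5%) lay near the background, as did that of complex IV in OCsEoS (14.3%). Median log2 fold changes in OCsEo were -0.06, -0.18, -0.18, -0.09 and -0.09 for complexes I to V, and in OCsEoS they were -0.04, -0.24, -0.17, -0.13 and -0.12. Complexes II and III thus had the lowest medians in both comparisons. These are descriptions of small lists, and the difference between complexes was not tested. Complexes are grouped by name here and below. The complex V numbers include Atp5s and Atp5sl, whose products are not part of the enzyme as it is known. Of these 2, 0 were lower in OCsEo and 2 in OCsEoS. The complex I numbers include Ndufa4, lower in OCsEoS, which is also assigned to complex IV. Summed over its tested members, complex II held 2858 ± 159 CPM in the controls, and 2506 ± 153 with eosinophils and 2409 ± 144 with their supernatant (mean ± SD, n = 4), a change of -12.3% and -15.7%. Complex III changed by -11.4% and -11.7% from 5759 ± 373 CPM, and complex V by -9.46% and -11.6% from 14406 ± 843 CPM. Complex I changed by -4.52% and -4.13% from 8876 ± 605 CPM, and complex IV by -3.59% and -7.67% from 7003 ± 504 CPM. For complex I both changes were smaller than the SD of its sum in the controls.

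**Figure D1:**
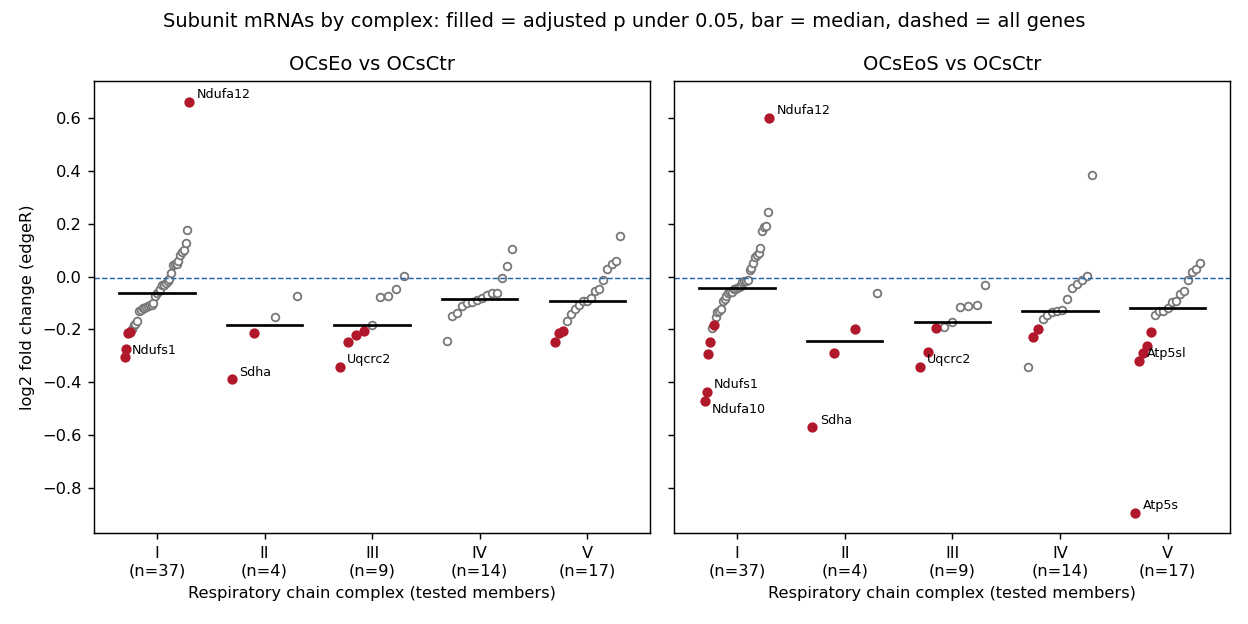
Log2 fold change (vertical axis, edgeR) of each of the 81 tested members, one point per gene, by complex (horizontal axis) for OCsEo and OCsEoS against OCsCtr. Filled points passed an adjusted p under 0.05, black bars are medians of a complex and the dashed line is the median of all 13681 genes. In both panels Sdha of complex II and Uqcrc2 of complex III were the lowest of their complexes, complex IV had no filled point in OCsEo, and Ndufa12 was the only filled point above 0.

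In complex II the catalytic dimer fell in both stimulated groups. Sdha encodes the flavoprotein that oxidises succinate (chr13:74322254-74350280, minus strand, GRCm38). Its level was 630.2, 672.9, 666.3 and 718.3 CPM in the OCsCtr libraries, 441.1, 570.5, 488.8 and 552.0 CPM in OCsEo, and 440.3, 518.3, 458.4 and 394.1 CPM in OCsEoS. Every stimulated library lay below every control. Sdha thus fell by 0.39 on the log2 scale in OCsEo (SE 0.08, adjusted p = 0.00235) and by 0.57 in OCsEoS (SE 0.08, adjusted p = 6.22e-05), and passed in each of 23 alternative fits. The iron-sulfur subunit Sdhb fell by 0.21 (adjusted p = 0.0242) and by 0.29 (adjusted p = 0.00223). The call in OCsEo was lost without OCsCtr replicate 2, OCsCtr replicate 3, OCsEo replicate 1 or OCsEo replicate 4, with adjusted p up to 0.0997. The remaining genes encode the membrane anchor that hands the electrons to coenzyme Q. Sdhc had a log2 fold change of -0.15 in OCsEo (adjusted p = 0.126) and fell by 0.20 in OCsEoS (adjusted p = 0.0373), a call lost on leaving out any of 5 libraries (OCsCtr replicate 2, 3 or 4, OCsEoS replicate 1 or 4). Sdhd was at 960.8 ± 70.9, 913 ± 76.4 and 920.6 ± 43.4 CPM in the 3 groups, with log2 fold changes of -0.07 and -0.06 and adjusted p of 0.497 and 0.554.

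In complex III the pair of core proteins, large matrix-side subunits related to mitochondrial processing peptidases, fell in both groups. Uqcrc2 was at 600.6, 665.9, 683.9 and 658.2 CPM in OCsCtr, at 467.1, 493.7, 550.3 and 547.1 CPM in OCsEo and at 513.4, 544.8, 532.1 and 468.9 CPM in OCsEoS. Neither stimulated group overlapped with the controls, and the log2 fold change was -0.34 in both comparisons (SE 0.06 in each, adjusted p = 0.00104 and 0.00071). Exons of Pdzd9 on the opposite strand cover 19.7% of the Uqcrc2 gene model, and without strand information their reads cannot be told apart there. Uqcrc1 was at 960.9, 1056, 1075 and 1035 CPM in OCsCtr, at 799.1, 864.1, 905.9 and 906.6 CPM in OCsEo and at 832.0, 881.2, 873.4 and 801.6 CPM in OCsEoS. It too lay below all controls in all stimulated libraries, and fell by 0.25 (adjusted p = 0.00371) and by 0.28 (adjusted p = 0.000883) on the log2 scale. Both core proteins passed in each of 23 alternative fits. Among the subunits that carry electrons, Uqcrfs1, the Rieske iron-sulfur protein, fell by 0.22 (adjusted p = 0.0243) and by 0.19 (adjusted p = 0.0385). These calls were lost on leaving out any of 4 and any of 6 single libraries, with adjusted p up to 0.104 and 0.155. Cyc1, which encodes cytochrome c1, was at -0.18 in OCsEo (adjusted p = 0.0558, under 0.05 in 7 of 23 alternative fits) and at -0.11 in OCsEoS (adjusted p = 0.235). Of the 5 small subunits Uqcrb fell in OCsEo (log2 fold change -0.20, adjusted p = 0.0284) and 0 passed in OCsEoS, where 2 had an unadjusted p under 0.05. Uqcrh, the hinge protein, was nearest to the controls with log2 fold changes of 0.00 and -0.03.

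**Figure D2:**
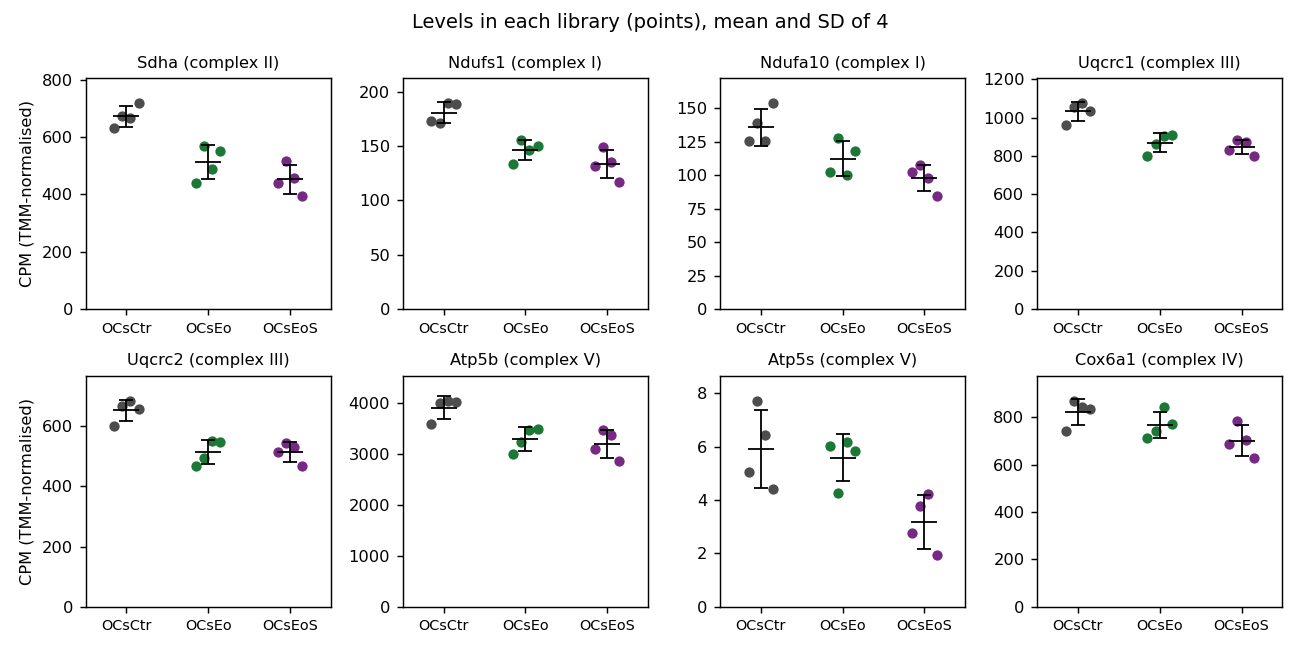
CPM (vertical axis, from 0) in each library (points) of 8 members in the 3 groups (horizontal axis), with the mean and SD of 4 libraries. Sdha, Ndufs1, Uqcrc1, Uqcrc2 and Atp5b lay below every control in both stimulated groups, Ndufa10 and Atp5s only in OCsEoS, and Cox6a1 overlapped with the controls in both.

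In complex V the catalytic head (F1) carried the changes that passed in both groups. Atp5b, the catalytic beta subunit, was the most abundant member, at 3582, 4005, 4041 and 4010 CPM in OCsCtr, 2991, 3233, 3466 and 3485 CPM in OCsEo, and 3092, 3474, 3362 and 2856 CPM in OCsEoS. Neither stimulated group overlapped with the controls, of which OCsCtr replicate 1 was the lowest. Log2 fold changes were -0.25 (SE 0.06, adjusted p = 0.00958) and -0.29 (SE 0.06, adjusted p = 0.00224), and both calls were kept in 23 alternative fits. Atp5a1, the alpha subunit, fell by 0.20 (adjusted p = 0.014) and by 0.26 (adjusted p = 0.0018). The call in OCsEo was lost without OCsCtr replicate 3 or without OCsEo replicate 1 (adjusted p up to 0.0575). Atp5d, the delta subunit, fell in OCsEoS (log2 fold change -0.21, adjusted p = 0.0136) and was at -0.09 in OCsEo (adjusted p = 0.313), and the small epsilon subunit Atp5e had the highest value of the complex in both comparisons, 0.15 (adjusted p = 0.14) and 0.05 (adjusted p = 0.646). Of the 4 peripheral stalk subunits (Atp5f1, Atp5h, Atp5j, Atp5o) and the 3 other membrane subunits (Atp5j2, Atp5k, Atp5l), 0 passed in edgeR, and 1 of the 7 had an unadjusted p under 0.05, Atp5f1 in OCsEoS. In the c-ring, the rotor that protons turn, 3 genes encode the same mature protein. Atp5g1 fell by 0.21 in OCsEo (adjusted p = 0.0359), Atp5g3 was at -0.14 (adjusted p = 0.15) and Atp5g2 at 0.06 (adjusted p = 0.575). The Atp5g1 call was lost in 10 of 23 alternative fits. One of these added the counts of Gm10039, a pseudogene whose own level was 94.7% of that of Atp5g1, and gave a log2 fold change of -0.13 (adjusted p = 0.202).

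Atp5s and Atp5sl share the name of complex V, but their products are not part of the enzyme as it is known, and both were scarce. Atp5s was at 5.06, 7.72, 6.42 and 4.42 CPM in OCsCtr, 6.04, 4.28, 6.18 and 5.85 CPM in OCsEo, and 2.78, 3.76, 4.21 and 1.95 CPM in OCsEoS, from 67 to 260 counts per library. The OCsEoS libraries lay below all others, and the log2 fold change was -0.89 against OCsCtr (SE 0.24, adjusted p = 0.0112), the largest of any member, against -0.08 in OCsEo (adjusted p = 0.868). Without OCsCtr replicate 2 its adjusted p was 0.0546. Atp5sl fell by 0.32 in OCsEoS (adjusted p = 0.0239) and was at -0.17 in OCsEo (adjusted p = 0.278).

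Complex I, the largest, had few calls outside its catalytic core as tested, and more with the gene length trend taken out. Of the 7 nuclear core subunits, which carry the flavin and the iron-sulfur clusters, 2 fell in OCsEo and 3 in OCsEoS, with medians of -0.13 and -0.18 and all 7 values below 0 in both. Ndufs1, the largest core subunit, was at 173.6, 171.3, 189.6 and 188.5 CPM in OCsCtr, 133.4, 155.4, 146.3 and 150.1 CPM in OCsEo and 131.8, 149.5, 135.9 and 117.2 CPM in OCsEoS, without overlap. Its log2 fold changes were -0.31 (SE 0.07, adjusted p = 0.00592) and -0.44 (SE 0.07, adjusted p = 0.000238). Ndufs3 fell by 0.21 (adjusted p = 0.0274) and by 0.25 (adjusted p = 0.00883), calls lost in OCsEo on leaving out any of 4 libraries (adjusted p up to 0.122) and in OCsEoS without OCsCtr replicate 2 (adjusted p = 0.051). The 30 tested accessory subunits, which surround the core, had medians of -0.04 and -0.03, and 2 were lower in each comparison. With the length trend taken out 8 (26.7%) and 9 (30.0%) of the 30 were lower, against 7.51% and 9.57% of all genes in that fit, and 4 and 5 of the 7 core subunits were. Ndufa10 was at 125.2, 138.6, 125.0 and 153.6 CPM in OCsCtr, 102.4, 127.8, 100.3 and 118.2 CPM in OCsEo, which overlapped with the controls, and 102.3, 107.3, 97.89 and 84.44 CPM in OCsEoS, which did not. Its log2 fold changes were -0.27 (adjusted p = 0.041, lost on leaving out any of 6 libraries) and -0.47 (adjusted p = 0.000849). Ndufs4 passed in OCsEo (log2 fold change -0.21, adjusted p = 0.0204) and was at -0.05 in OCsEoS (adjusted p = 0.657). Ndufa4, an accessory subunit by name that is also assigned to complex IV, was at -0.20 in OCsEo (adjusted p = 0.0526, under 0.05 in 8 of 23 alternative fits) and fell by 0.29 in OCsEoS (adjusted p = 0.00423).

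Ndufa12 was the only member that passed as higher, and its counts varied against those of a near-identical pseudogene. It encodes a small accessory subunit of complex I (chr10:94198955-94221443, plus strand, GRCm38). Its level was 48.5, 53.3, 98.0 and 44.2 CPM in OCsCtr, 91.9, 104, 79.1 and 111 CPM in OCsEo, and 109, 102, 99.6 and 59.6 CPM in OCsEoS. Because OCsCtr replicate 3 was as high as the stimulated libraries, the groups overlapped. The log2 fold changes were 0.66 (SE 0.20, adjusted p = 0.0273) and 0.60 (SE 0.20, adjusted p = 0.0366), and they did not pass in DESeq2 (adjusted p = 0.0829 and 0.105). The processed pseudogene Gm15920 (chr5:130188395-130188796, plus strand, GRCm38) aligns to coding bases of Ndufa12 from base 37 on, with 400 of 402 bases identical (99.5%) and 0 gaps. The coding part of Ndufa12 has 438 bases, so most of it has a near-identical copy in Gm15920. Of the 50-base windows of all Ndufa12 transcripts, which include noncoding parts, 17.7% occur in Gm15920. The differences are A135G and T414C, each giving the Ndufa12 base, its position from the first coding base, and the Gm15920 base. The following 120-base stretches of both, taken from GENCODE transcripts of GRCm38, are shown as an example of the shared part, and the capital marks the only base that differs.
Ndufa12: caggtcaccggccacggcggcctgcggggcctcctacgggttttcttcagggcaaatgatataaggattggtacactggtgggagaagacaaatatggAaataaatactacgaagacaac
Gm15920: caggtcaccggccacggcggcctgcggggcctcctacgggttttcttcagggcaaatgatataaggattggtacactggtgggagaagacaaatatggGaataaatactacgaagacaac

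Counts given to the pseudogene moved against those given to the gene. Gm15920 was at 105, 115, 86.9 and 99.98 CPM in OCsCtr, 70.2, 71.5, 91.9 and 76.8 CPM in OCsEo, and 72.1, 95.1, 97.4 and 103 CPM in OCsEoS. OCsCtr replicate 3 had the most Ndufa12 and the least Gm15920 of its group, and OCsEo replicate 3 and OCsEoS replicate 4 had the least Ndufa12 and the most Gm15920 of theirs. Ndufa12 took 30.7% to 53.0% of the sum of both in OCsCtr, 46.3% to 59.3% in OCsEo and 36.6% to 60.1% in OCsEoS. The sum itself was 153, 168, 185 and 144 CPM, 162, 176, 171 and 188 CPM, and 181, 198, 197 and 163 CPM, and overlapped between all groups. Tested as 1 gene, the sum was at 0.10 in OCsEo (adjusted p = 0.45) and at 0.18 in OCsEoS (adjusted p = 0.107) on the log2 scale. How the authors' counting treated reads that match both loci is not given in the sources used here. Counted by transcript windows of 50 bases, 16 members had at least 1 annotated pseudogene that holds 5% or more of their windows, 20 pseudogenes in all, and Ndufa12 and Atp5g1 were the members whose pseudogenes reached a level close to their own.

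**Figure D3:**
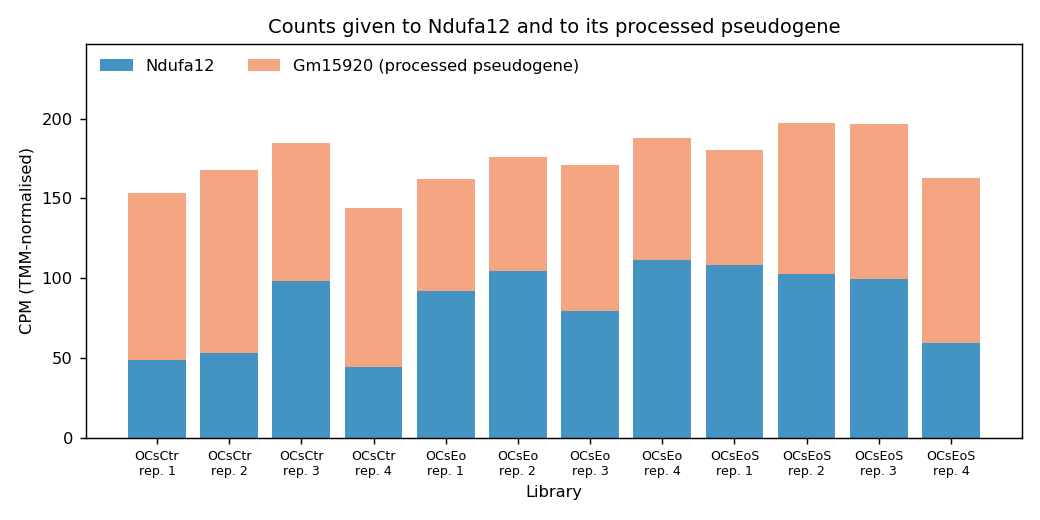
CPM (vertical axis, from 0) given to Ndufa12 (blue) and to its processed pseudogene Gm15920 (orange) in each of the 12 libraries (horizontal axis), stacked. The total stayed between 144 and 198 CPM while the blue share ranged from 30.7% to 60.1%.

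In complex IV 0 of 14 tested members passed in OCsEo in edgeR, 0 had an unadjusted p under 0.05 and 0 passed in DESeq2. In OCsEoS Cox5a (log2 fold change -0.20, adjusted p = 0.037) and Cox6a1 (-0.23, adjusted p = 0.0213) were lower. Cox6a1, a small membrane subunit, was at 740.8, 869.5, 842.4 and 835.0 CPM in OCsCtr and at 686.4, 786.2, 704.0 and 629.3 CPM in OCsEoS. The groups overlapped through OCsCtr replicate 1, and the call was lost on leaving out any of 6 libraries, with adjusted p up to 0.101. Cox4i1, the largest nuclear subunit, was the most abundant of the complex and was at 1529 ± 105, 1571 ± 126 and 1443 ± 101 CPM. Complex IV is the complex whose subunits come in tissue isoforms, and the osteoclasts expressed the common ones. Per kb of gene length, the 10 common isoforms ranged from 129 to 1357 CPM in OCsCtr (median 539), whereas the heart and muscle isoforms Cox6a2 and Cox7a1 and the testis isoform Cox6b2 were at 1.65, 43.9 and 1.10 CPM. The isoforms Cox4i2 (16 counts over all libraries), Cox7b2, Cox8b and Cox8c (0 counts each) did not pass the filter, and neither did Ndufa4l2 of complex I (6 counts). A total of 0 counts allows up to 3 counts, so Cox7b2, Cox8b and Cox8c were not detectable at this depth.

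Ratios between isoforms were compared by exact permutation tests, two-sided, over the splits of 4 against 4 libraries, whose smallest p is 0.0286. Of 9 ratios listed, 4 had enough counts in every library, and 0 passed after Benjamini-Hochberg adjustment over the 4 in a comparison. The smallest p adjusts to 0.114 where a single ratio reaches it, and adjusted to 0.0571 where both Atp5g ratios did in OCsEo. Full separation of the libraries was thus not enough for these ratios to pass, and their not passing does not show that a ratio was unchanged. Cox7a1 was at 7.55% to 8.89% of Cox7a2 per kb in OCsCtr, 6.85% to 8.77% in OCsEo and 6.08% to 7.65% in OCsEoS, a difference of -0.14 (exact permutation p = 0.2, adjusted 0.267) and -0.30 in log2 (p = 0.0571, adjusted 0.114). As a single gene Cox7a1 did not pass in OCsEoS, and did so in 7 of 23 alternative fits. Atp5g1 against Atp5g2 differed by -0.27 in OCsEo without overlap (exact permutation p = 0.0286, adjusted 0.0571) and by -0.12 in OCsEoS (p = 0.114, adjusted 0.152). Atp5g3 against Atp5g2 differed by -0.20 (exact permutation p = 0.0286, adjusted 0.0571) and by -0.11 (p = 0.0286, adjusted 0.114), again without overlap. Both Atp5g ratios have Atp5g2 as partner, so they are not independent of each other. The counts of the pseudogene Gm10039, at 94.7% of the level of Atp5g1, were not added for these ratios. Cox6b2 against Cox6b1 was at -0.10 and 0.42 (exact permutation p = 0.857 and 0.257), from as few as 21 counts in a library.

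Between the stimulated groups no member passed. In OCsEoS compared with OCsEo 0 of 81 members were lower and 0 higher in edgeR, against 0.497% and 0.0950% of all genes, 6 had an unadjusted p under 0.05, and DESeq2 called 0. The median of the members was -0.02. The groups did not overlap for 2 members, 1 lower (3.06% of all genes) and 1 higher (2.41% of all genes). Ndufs4 was higher in OCsEoS (log2 fold change 0.17, adjusted p = 0.284) and Atp5s was lower (-0.81, adjusted p = 0.181), the smallest adjusted p of the 81. Sdha differed by -0.18 (adjusted p = 0.42). A member that passed against OCsCtr with 1 stimulus and not with the other is therefore not shown to differ between them. Of the members lower in OCsEo, 10 (76.9%) were lower in OCsEoS too, which is 55.6% of those lower in OCsEoS. They were Ndufs1, Ndufs3, Ndufa10, Sdha, Sdhb, Uqcrc1, Uqcrc2, Uqcrfs1, Atp5a1 and Atp5b. The same overlap over all genes is not given here. Both comparisons share the OCsCtr libraries, so the overlap is not read as particular to the members.

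Subunit mRNAs were among the abundant transcripts of these cultures, and members took 3.31% to 4.05% of all counts in a library. The median member was at 249.5 CPM per kb in OCsCtr, against 3.79 CPM per kb for all genes tested, and 78 of 81 members were above the latter. The highest members per kb were Ndufb9 (681) in complex I, Sdhd (747) in complex II, Cyc1 (880.3) in complex III, Cox8a (1357) in complex IV and Atp5a1 (973) in complex V. The lowest of complex I was Ndufb2, an accessory subunit, at 1.67 CPM per kb, with Ndufs1 next at 22.4. The Ndufb2 model, by whose 5628 bases its level was divided, overlaps exons of other genes over 7.94% of its length. These include Gm42420, a protein-coding model on the same strand, and how reads there were counted is uncertain. The cause of the low value was not tested.

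The mRNAs that fell were longer than the others, and the counts of lower members depended on how gene length was handled. In the table the median gene length was 2313 bases for the 21 members lower in either comparison and 1227 bases for the other 60, against 3634 bases for all genes tested. Length and role overlapped in part. Median lengths were 3343.5 bases for the complex III core proteins, 3061 for the complex II dimer, 2178 for the complex I core, 1928 for the F1 subunits and 1278.5 for the electron carriers of complex III. Among the other roles they were 2694.5 for the peripheral stalk, 2268.5 for the complex II anchor, 2181 for the c-ring, 1217 for the complex I accessory subunits, 942.5 for the common complex IV isoforms and 876 for the small subunits of complex III. Across all genes tested the log2 fold change and the gene length had a Spearman correlation of -0.19 in OCsEo and -0.24 in OCsEoS, and across the 81 members of -0.28 and -0.18, which describe these libraries, since genes are not replicates. With the length trend of each library taken out, 29 members (35.8%) were lower in OCsEo, against 7.51% of all genes, and 44 (54.3%) in OCsEoS, against 9.57% of all genes, and 0 were higher. In that fit the members' medians were -0.16 and -0.19. By complex I to V, 12, 3, 5, 4 and 5 members were lower in OCsEo and 14, 4, 8, 9 and 9 in OCsEoS, and the lower members comprised 14 and 15 of the 18 catalytic, electron-carrying and core subunits and 15 and 29 of the other 63. Ndufs1 alone of the members named above as lower in both lost a call in this fit, with adjusted p = 0.0674 in OCsEo.

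**Figure D4:**
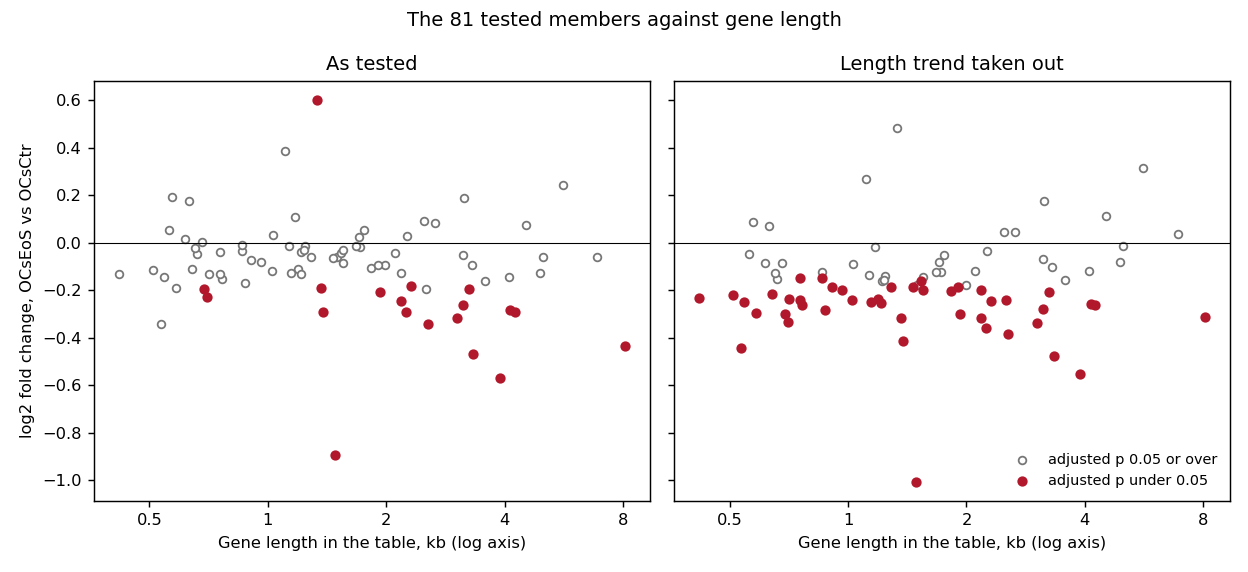
Log2 fold change of each tested member in OCsEoS against OCsCtr (vertical axis) against its gene length in kb (horizontal axis, log scale), as tested (left) and with the length trend taken out (right). Filled points passed an adjusted p under 0.05, 18 lower and 1 higher on the left and 44 lower on the right, where the short genes joined them.

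Promoter sequences were available for 67 of the 86 members (72 entries in the RefSeq table of GRCm38.p6, 250 bases before and 50 after the start). Binding motifs of factors known to act on respiratory chain genes were searched on both strands. The NRF1 motif GCGCANGCG was in 29.2% of member promoters, against 1608 of 12353 promoters of genes tested and 6.25% of all promoters in the table. The ETS motif CCGGAAG, bound by GABP, was in 22.2%, against 17.1% and 8.86%, and the YY1 motif AAGATGGC in 12.5%, against 4.38% and 2.75%. The TATA motif TATAAA was in 11.1%, against 7.09% and 13.6%. The NRF1 motif was in 9 of 35 promoters of complex I, 2 of 3 of complex II, 2 of 5 of complex III, 1 of 13 of complex IV and 7 of 16 of complex V. It was in 21.4% of the 14 promoters of members lower in either comparison and in 32.1% of the 56 promoters of tested members that were not, and a motif match is not a measured binding site. The promoters of Sdha, the member with the smallest adjusted p in OCsEoS, and of Cox6a1, 1 of the 2 complex IV members that fell, are shown as the windows of lower members that hold a motif in the 120 bases before the gene model, with the NRF1 motif in capitals (both on the minus strand of GRCm38.p6, Sdha at chr13:74350281-74350400 and Cox6a1 at chr5:115348982-115349101).
Sdha: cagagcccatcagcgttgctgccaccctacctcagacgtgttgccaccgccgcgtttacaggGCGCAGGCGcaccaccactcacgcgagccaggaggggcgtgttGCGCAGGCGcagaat
Cox6a1: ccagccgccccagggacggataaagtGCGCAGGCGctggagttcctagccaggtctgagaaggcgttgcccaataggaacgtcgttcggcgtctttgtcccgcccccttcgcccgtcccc
The Sdha window holds the NRF1 motif 2 times and the Cox6a1 window 1 time.

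Other genes that make or feed the respiratory chain were set beside the subunits. The counts below stand against 8.35% lower and 9.06% higher of all genes in OCsEo, and 11.2% lower and 11.8% higher in OCsEoS. Those shares belong to the fit of all 12 libraries, and the shares for fits without 1 library are not given here. These lists were not counted in the fit with the gene length trend taken out. Whether their counts depend on how length is handled, as those of the members did, is therefore not known. Of 13 TCA cycle enzymes, which supply NADH and succinate, 11 (84.6%) were lower in each comparison and 0 higher, with medians of -0.32 and -0.31. Citrate synthase (Cs) fell by 0.43 and by 0.41 on the log2 scale. Suclg2 passed in neither comparison, Sucla2 passed against OCsCtr in OCsEoS and not in OCsEo, and Suclg1 in OCsEo and not in OCsEoS. The difference between TCA genes and subunits was not tested. Of the 13 protein-coding genes of the mitochondrial genome, 7 were lower and 1 higher (mt-Nd6, log2 fold change 0.99) in OCsEo, and 5 were lower and 0 higher in OCsEoS, with medians of -0.66 and -0.52. The genes mt-Nd4l and mt-Atp8 were barely counted, at means of 0.908 and 1.17 CPM in OCsCtr and 0.107 and 0.478 CPM in OCsEo. The lower calls in OCsEo include mt-Nd4l (log2 fold change -2.99, adjusted p = 0.0211). The level of mt-Co1 was 5203 CPM in OCsCtr replicate 1 and 1394 to 2215 CPM in the other controls, against 1338 to 1441 CPM in OCsEo and 1314 to 2596 CPM in OCsEoS. Without OCsCtr replicate 1, mitochondrial genes took 0.487% to 0.689% of counts in the controls, which overlapped with 0.515% to 0.5997% in OCsEo and 0.505% to 0.898% in OCsEoS. In the fit without this library 3 of the 13 were lower and 2 higher in OCsEo, and 3 were lower in OCsEoS, with medians of -0.44 and -0.20. The count in OCsEoS was 2 without OCsEoS replicate 2 or OCsEoS replicate 3 and 3 without OCsEoS replicate 1. The gene mt-Nd6 lies on the strand opposite to its neighbours. Cytochrome c (Cycs) fell by 0.20 in OCsEo (adjusted p = 0.0186) and was at -0.15 in OCsEoS (adjusted p = 0.0699).

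Genes for building the chain were counted by list in the same way, again without the length trend taken out, and their difference from the subunits was not tested. Of 14 complex I assembly genes 0 were lower and 1 was higher in each comparison, Ndufaf7 in OCsEo (0.60, adjusted p = 0.0054) and Ndufaf6 in OCsEoS (0.36, adjusted p = 0.0098). Of 6 complex III assembly genes 0 were lower, and Uqcc2 was higher in both and Uqcc3 in OCsEoS. In complex IV assembly 4 of 19 (21.1%) were lower in each comparison (2 in OCsEo without OCsCtr replicate 2 or OCsCtr replicate 3), including the haem A enzymes Cox10 (-0.45 and -0.29) and Cox15 (-0.25 and -0.29) and the mitochondrial RNA-binding protein Lrpprc (-0.24 and -0.27), and Pet100, Coa3 and Cox19 were higher in OCsEoS. Assembly genes of complexes II (4 genes) and V (3 genes) gave 0 calls in edgeR in either comparison and 0 at an unadjusted p under 0.05. Of 9 genes for coenzyme Q, Coq9 and Coq5 were lower in both comparisons (-0.34 and -0.36, -0.32 and -0.31), Pdss2 was lower and Coq4 higher in OCsEoS. Of 12 regulators and genes of mitochondrial DNA upkeep, the coactivator Ppargc1b, known for its part in osteoclast mitochondria, fell from 22.8 ± 1.17 CPM to 14.8 ± 1.54 and 15.4 ± 2.55 CPM (log2 fold changes -0.63 and -0.57, adjusted p = 0.0015 and 0.0022). Gabpb1 was higher in both (0.30 and 0.34), and Ppargc1a was at or near 0 counts. A list of 14 genes joined outer membrane channels and protein import with 3 carriers of the inner membrane that exchange phosphate, ADP and ATP (Slc25a3, Slc25a4, Slc25a5). In it 4 and 5 were lower and 1 and 2 higher, Slc25a3 and Slc25a5 being lower in both, and leaving out 1 library gave 1 to 3 and 3 to 6 lower. The 76 tested genes of the mitochondrial ribosome had 1 lower and 3 higher in OCsEo and 0 lower and 22 higher in OCsEoS, with medians of 0.07 and 0.14. Their 1.32% lower and 3.95% higher in OCsEo lay under the shares of all genes, and the 22 higher in OCsEoS (28.9%) became 13 without OCsCtr replicate 1 and 12 without OCsCtr replicate 4. Between OCsEoS and OCsEo, 1 gene of all these lists passed, mt-Nd6, which was lower in OCsEoS.

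**Figure D5:**
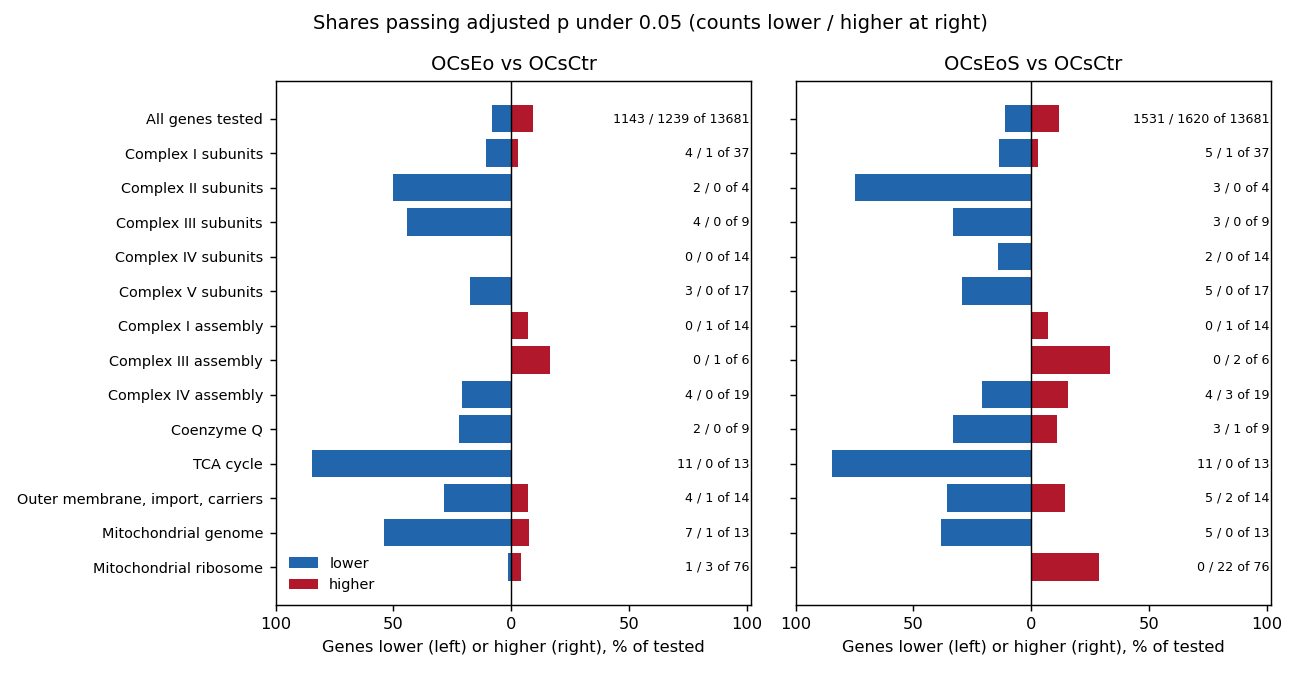
Share of tested genes (horizontal axis, percent) that passed an adjusted p under 0.05 as lower (left of 0, blue) or higher (right of 0, red) in each complex and related list, for OCsEo and OCsEoS against OCsCtr, with the counts at the right of each bar. TCA cycle genes had the highest lower share in both panels (11 of 13), and mitochondrial ribosome genes were higher in OCsEoS (22 of 76). All counts are without the length trend taken out.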

How the data were processed

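Per the labels and the study's methods, reads were cleaned with fastp, aligned with HISAT2 2.0.5 to mm10 (GRCm38), and counted per gene with featureCounts by the authors, who deposited raw counts without normalization. The annotation release, the strand setting and the treatment of multi-mapping reads are not given in the sources used here. Counts were filtered with filterByExpr (minimum count 10), scaled by TMM (factors 0.968 to 1.03) and tested with edgeR 4.0.16 in R 4.3.3 (quasi-likelihood, 1 fit of 12 libraries, 3 groups, no block), adjusted over 13681 genes. DESeq2 1.42.0, other scalings, filters and samples, a replicate block, the length trend taken out (lowess on log2 gene length, span 0.3), and each library left out were alternatives. Adding pseudogene counts, and leaving out single libraries for the related lists, were chosen after seeing the data. Coordinates and transcripts came from GENCODE vM21.

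Members, lists and role groups were chosen with earlier results of these data known. The genes named are members called DEG, in each complex the highest per kb and the lowest and highest fold changes, the 10 smallest adjusted p in each comparison with OCsCtr, the Sdh genes, isoform partners and members under the filter, and 5 smallest adjusted p are given in every library. Other lower members (Uqcrb, Cox5a, Atp5d, Atp5sl), Ndufb2, Atp5f1, the library values of Cox6a1 and genes of other lists were named after their values were seen. Library totals give the depth, and intervals beyond counting error are not implied by it. Deviations of same-numbered libraries of different groups were only weakly correlated (-0.04 to 0.09). Still, 2 OCsCtr libraries correlated best with their own number in OCsEo, and 3 did so in OCsEoS. The same held for 3 OCsEo libraries in OCsEoS. These values do not decide whether same-numbered libraries are paired. Genes withheld from this text are included in the counts but not reported here.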

Additional observations from a re-analysis of the deposited data

Results flagged for a closer look

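Among 117 sets of 4 libraries (the named members tested, the share of counts on members and the medians by complex, in each group), 5 held a library whose gap to its nearest neighbour was large for the range of the set by Dixon's criterion, and chance gives about 1 in 20. Ndufa12 was at 98.0 CPM in OCsCtr replicate 3, against 44.2 to 53.3 CPM in the other controls. Atp5b was at 3582 CPM in OCsCtr replicate 1 (others 4005 to 4041 CPM) and Ndufa4 at 599.7 CPM in the same library (others 685 to 699 CPM), so that this library held 2 of the 5. Atp5g1 was at 315 CPM in OCsEoS replicate 1 (others 345 to 349 CPM), and Atp5s at 4.28 CPM in OCsEo replicate 2 (others 5.85 to 6.18 CPM).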

How the results depend on the processing

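Under the alternatives that kept all libraries, the lower members numbered 12 to 29 in OCsEo and 16 to 44 in OCsEoS, and 0 named gene reversed a called direction. With the gene length trend taken out, 29 and 44 members were lower, 0 were higher, 0 were DEG in OCsEo, and the medians in OCsEoS were -0.19 for all members and -0.14 for complex I. The single higher member in OCsEo, Ndufa12, and its DEG call were lost (0 members) in DESeq2 and with pseudogene counts added, and the latter also left 0 higher in OCsEoS. Higher members in OCsEoS numbered 2 in DESeq2, with library totals alone, without a filter, with at least 10 counts in every library or without mitochondrial genes, and 3 with 2 groups in the fit or with the replicate block. The block gave 18 and 24 lower members. No source used here says that same-numbered libraries are paired, so the block is not read as a pairing, and a pairing is not excluded. A fold change threshold of 1 left 0 DEG members in either comparison. Leaving out 1 library gave 5 to 17 lower and 0 to 1 higher members and 0 to 1 DEG in OCsEo, and 9 to 25 lower and 0 to 3 higher members and 1 to 4 DEG in OCsEoS. The cause of these shifts was not tested. For the block and for the fits without 1 library, the shares of all genes in the same fit are not given here. Between OCsEoS and OCsEo, 0 members passed in any fit run with edgeR or DESeq2. With 4 libraries a group and standard errors of about 0.06 to 0.08 for abundant members, a p that misses the threshold does not show that a subunit did not change.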
